A study of Mus musculus with 8 samples.

Results

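The proteasome is the barrel-shaped protease that degrades ubiquitin-tagged proteins, and its transcripts were measured here in mouse gastrocnemius, the large calf muscle. The members were the genes whose only symbol in the platform's probe annotation started with Psma, Psmb, Psmc, Psmd, Psme, Psmf or Psmg, with Psmb8 and Psmb9 left out. This rule took 47 of the 18193 genes on the array, and each was read from its brightest probe set, the one with the highest mean log2 signal over the 8 arrays. Psme2 is not among them, because its probe set carried several symbols. The 8 samples were 4 wild-type muscles and 4 muscles labelled GR KO, a knockout of the glucocorticoid receptor that the design text writes as GR(i)skm-/-, all on a C57/Bl6J background. Neither the labels nor the design text gives the driver of the deletion or the age and sex of the mice. Each sample was total RNA on 1 Affymetrix array, and the values are signals made with MAS5, Affymetrix's summary of the probes of a gene, on a linear scale.

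The working proteasome is a 20S core capped by 19S regulatory particles. Rings of alpha subunits (Psma genes) gate the core, and rings of beta subunits (Psmb genes) hold the proteolytic sites. In the 19S particle, ATPases (Psmc genes) unfold the substrate and push it into the core, and non-ATPase subunits (Psmd genes) bind ubiquitin chains, cut them off and hold the lid together. Psme genes encode other caps, Psmf1 an inhibitor, and Psmg genes chaperones that build the core. In muscle this system degrades myofibrillar proteins, and glucocorticoid excess is a classic cause of muscle wasting through it, so the comparison asks whether the transcripts differ when the receptor gene is disrupted.

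Of the 47 members, 45 lay above the signal filter and entered the test, as did 11062 of all 18193 genes. A gene passed if its mean log2 signal exceeded 4.28, a signal of 19.4, the level that splits the array's probe sets evenly. The members left out were Psma8, a testis-specific alpha subunit with signals of 9, 10, 9 and 7 in wild-type and 7, 6, 6 and 9 in GR KO muscle, and Psmb11, a subunit of the thymus proteasome with signals between 1 and 4. Muscle fibre markers were bright in all samples, with the sum of the 9 markers between 77795 and 167833 in wild-type and between 70873 and 108875 in GR KO muscle. The brightest probe set of the receptor gene Nr3c1 had signals of 289, 213, 287 and 513 in wild-type and 222, 169, 120 and 105 in GR KO muscle. One GR KO value lay inside the wild-type range, and the log2 fold change was -1.07 (limma adjusted p = 0.963 in the fit of all probe sets). Another of its probe sets, chosen here for its small p, had 377, 307, 307 and 352 against 134, 79, 76 and 94, with no overlap (adjusted p = 0.0240). Wild-type replicate 4 stood apart from the other arrays. Its spike-in signal was 3.17 times that of the other wild-type arrays, and its 3′ to 5′ signal ratio for Gapdh was 1.2 against 0.797 to 0.915 elsewhere. The same ratio for Actb did not set it apart, at 1.73 against 0.991 to 1.84 elsewhere. Where leaving this array out moved a member's log2 fold change by more than 1.5 times, the value without it is given too.

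No proteasome gene differed between GR KO and wild-type muscle past the threshold. Of the 45 members tested, 0 passed an adjusted p of 0.05 in limma, against 6 of 11062 genes (0.0542%), and 1 member had an unadjusted p under 0.05. The smallest adjusted p of any member was 0.880. The log2 fold changes, GR KO against wild type, ran from -0.34 for Psmd12 to 0.32 for Psmd11, with a median of 0.08 beside 0.01 over all genes tested. They were above 0 for 29 members and below 0 for 16, or 64.4% above 0, beside 52.2% of all genes tested. Among the 3132 tested genes within the range of mean signals of the ring, ATPase and non-ATPase subunits, 60.0% were above 0. Of those 31 subunits themselves, 61.3% were above 0. Without wild-type replicate 4 the members' median was 0.00306, with 23 above 0.

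Given the spread among these 8 samples, which may be technical, the intervals bound how large a difference could have been missed. The 95% interval of the log2 fold change lay wholly within a 1.5-fold difference either way for 35 of the 45 members, or 77.8%, beside 42.0% of all genes tested and 61.4% of the 3132 genes of like signal. It lay within a 2-fold difference for 44 of 45 (97.8%), all but Psmc6, beside 84.9% of all genes tested and 95.2% of those of like signal. The genes of like signal were matched to the 31 ring, ATPase and non-ATPase subunits only. Of these 31, 25 (80.6%) had an interval within 1.5-fold and 30 within 2-fold. With each array centred on its median instead, 9 members had an interval within 1.5-fold. The 10 members whose interval reached past 1.5-fold were Psmb10, Psmc3, Psmc3ip, Psmc6, Psmd7, Psmd8, Psmd11, Psmd12, Psme1 and Psmg2. The median within-group SD on the log2 scale was 0.21 for the members, 0.24 for the genes of like signal and 0.29 for all genes tested.

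**Figure D1:**
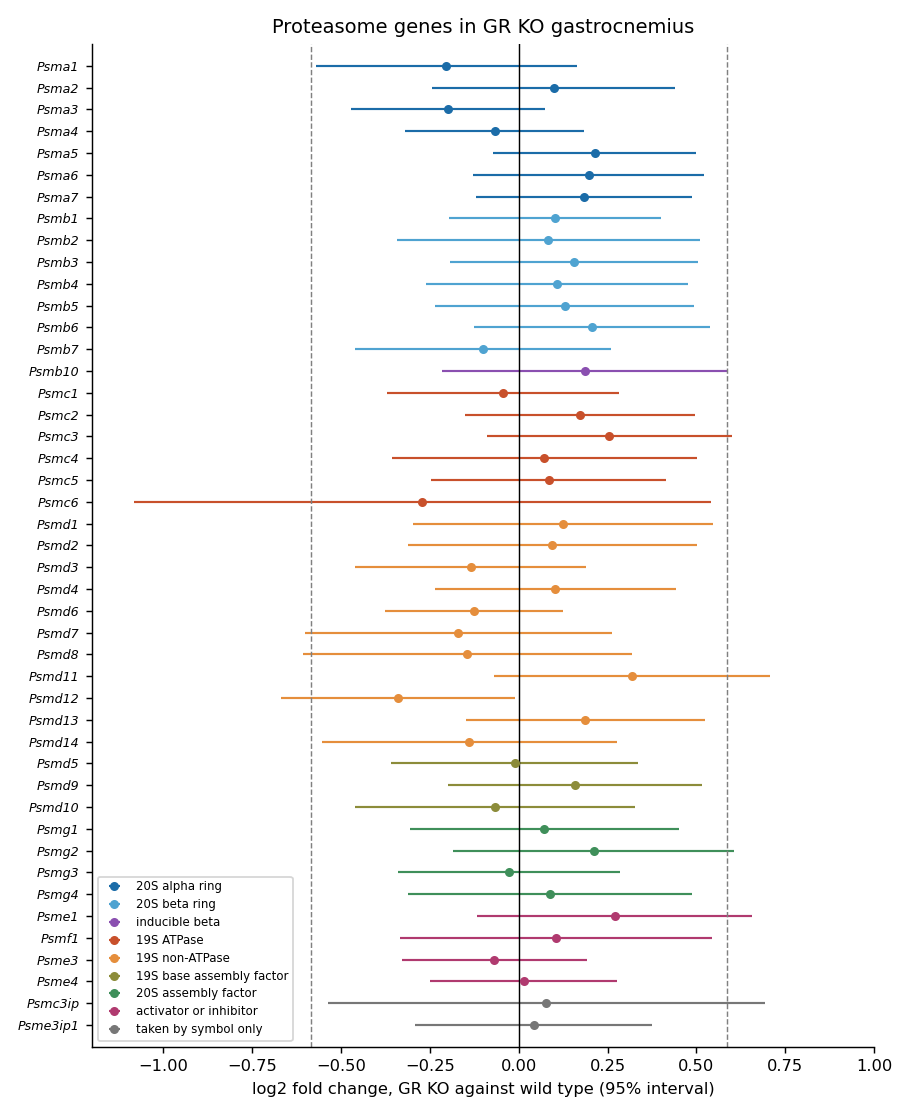
Log2 fold change of each tested proteasome gene in GR KO against wild-type gastrocnemius (x axis), with genes on the y axis coloured by their role, points for the limma estimate and bars for the 95% interval, n = 4 arrays per group. Dashed lines mark a 1.5-fold difference either way. All intervals but that of Psmd12 include 0, and the widest is that of Psmc6.

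The alpha ring, which gates entry to the core, had small differences of both signs. Of its 7 subunits, 4 had a log2 fold change above 0 and 3 below, with a median of 0.10, or 0.03 without wild-type replicate 4, and a range from -0.20 to 0.21. Psma5 had signals of 1230, 1152, 1077 and 997 in wild-type muscle and 1277, 1132, 1452 and 1309 in GR KO muscle. Its lowest GR KO value lay inside the wild-type range, and the log2 fold change was 0.21 ± 0.13 (SE, n = 4 per group, limma adjusted p = 0.880). Psma3 went the other way, with signals of 2531, 2114, 2093 and 2347 in wild-type and 2163, 1912, 1964 and 1868 in GR KO muscle. Only GR KO replicate 1 reached into the wild-type range, and the log2 fold change was -0.20 ± 0.12 (adjusted p = 0.880). Psma6, another subunit of the ring, had 4614, 4516, 3917 and 4079 in wild-type and 4045, 4827, 6019 and 4894 in GR KO muscle (log2 fold change 0.20 ± 0.15). The groups overlapped, with GR KO replicate 3 well above the rest. The log2 fold changes of Psma1, Psma2, Psma4 and Psma7 were -0.20, 0.10, -0.07 and 0.18. Without wild-type replicate 4 those of Psma2 and Psma7 were 0.03 and 0.10.

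Among the beta subunits of the core, those with the proteolytic sites had overlapping groups. Psmb5, the chymotrypsin-like subunit, had signals of 1978, 2249, 2320 and 1597 in wild-type muscle and 1761, 2190, 2396 and 2557 in GR KO muscle. The mean signals were 2036 ± 328 and 2226 ± 344 (SD, n = 4), the lowest value was wild-type replicate 4, and the groups overlapped widely (log2 fold change 0.13 ± 0.17 SE, limma adjusted p = 0.901, and 0.018 without that array). Psmb6, the caspase-like subunit, had 1984, 2154, 2127 and 1592 against 1869, 2229, 2604 and 2365. Apart from GR KO replicate 1 its knockout values were above all wild-type values, and the log2 fold change was 0.21 ± 0.15 (adjusted p = 0.880), or 0.11 without wild-type replicate 4. Psmb7, the trypsin-like subunit, had 2210, 2008, 2589 and 1840 in wild-type and 1793, 1698, 2069 and 2540 in GR KO muscle, a log2 fold change of -0.10 ± 0.16 (adjusted p = 0.916), or -0.17 without wild-type replicate 4. It was the only one of the 7 beta ring subunits with a value below 0, where the other 6 lay between 0.08 and 0.21. Psmb3, a structural subunit, had 2605, 2838, 2249 and 2458 against 2200, 2850, 3517 and 2858. The highest and the lowest of its 8 values were both GR KO arrays. Without wild-type replicate 4, the median of the 7 beta ring subunits was 0.01 instead of 0.11, and 4 of them were above 0. Psmb1, Psmb2 and Psmb4 had 0.10, 0.08 and 0.11 with all arrays and 0.014, -0.055 and -0.024 without it.

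Psmb10 replaces Psmb7 in immunoproteasomes, the form that interferon induces. Its signals were 119, 160, 146 and 185 in wild-type muscle and 158, 139, 209 and 188 in GR KO muscle. Values of the groups interleaved, with a log2 fold change of 0.19 ± 0.18 (SE, limma adjusted p = 0.881) that was 0.29 without wild-type replicate 4. Beside it, 3 of 6 tested interferon-responsive genes were above 0 and 3 below, with 0 past the threshold. Of these, B2m, the light chain of class I molecules, had a log2 fold change of 0.21 and Tap1, a peptide transporter, -0.25. Tap1 signals were 60, 97, 82 and 218 in wild-type and 90, 95, 74 and 83 in GR KO muscle, the highest on wild-type replicate 4. On that array all 6 of these genes lay above their own mean over the arrays. Their part in the value of Psmb10 was not tested.

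**Figure D2:**
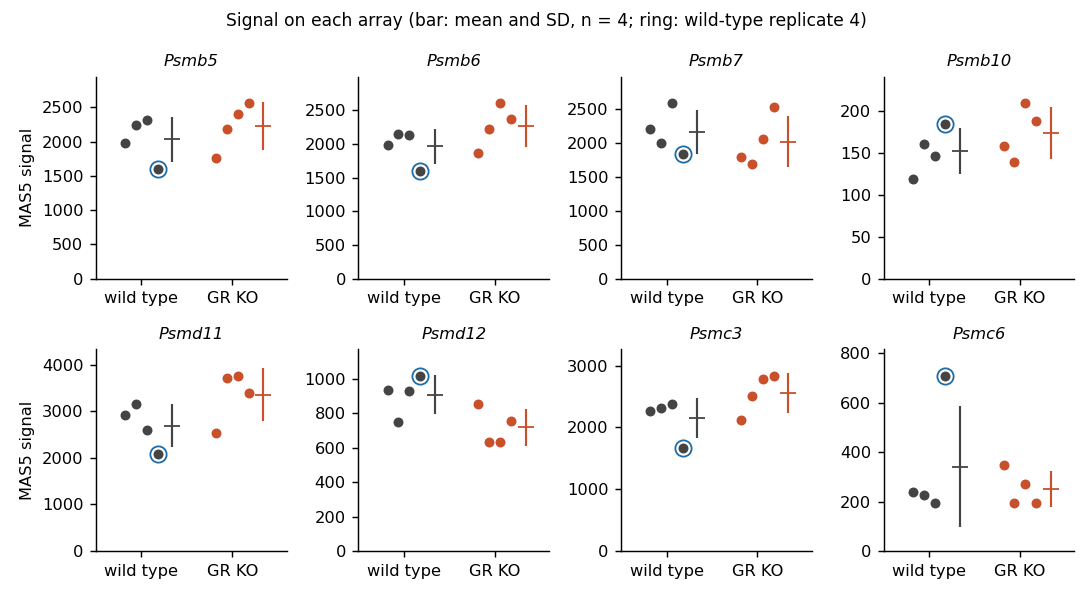
MAS5 signal (y axis, linear, from 0) of 8 proteasome genes on each wild-type and GR KO array, with points for arrays, bars for the mean and SD (n = 4), and a ring around wild-type replicate 4. The ringed array is the lowest of the wild-type values for Psmb5, Psmb6, Psmb7, Psmd11 and Psmc3 and the highest for Psmb10, Psmd12 and Psmc6.

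The 19S ATPases form the ring that unfolds substrates. Of the 6, 4 had a log2 fold change above 0 and 2 below, with a median of 0.08. Psmc3 had signals of 2263, 2310, 2372 and 1669 in wild-type muscle and 2127, 2504, 2780 and 2836 in GR KO muscle. The low wild-type value was replicate 4, and GR KO replicate 1 fell inside the wild-type range. Its log2 fold change was 0.26 ± 0.16 (SE, n = 4, limma adjusted p = 0.880), and 0.14 without wild-type replicate 4. Psmc2 had 3446, 3265, 2778 and 2759 in wild-type muscle and 2882, 3449, 4103 and 3411 in GR KO muscle (log2 fold change 0.17 ± 0.15), and its groups overlapped. Psmc6 was the member most dependent on 1 array. Its wild-type signals were 238, 227, 192 and 709, and its GR KO signals 347, 193, 270 and 192. The log2 fold change was -0.27 ± 0.37 with all arrays and 0.15 ± 0.21 without wild-type replicate 4. A second Psmc6 probe set also had its highest signal on that array, 271 against 98 to 191 on the other wild-type arrays. Psmc1, Psmc4 and Psmc5 had log2 fold changes of -0.05, 0.07 and 0.08, and of -0.16, -0.088 and -0.0093 without that array.

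The non-ATPase subunits held both ends of the range. Psmd12, a lid subunit, had signals of 934, 748, 932 and 1019 in wild-type muscle and 854, 632, 636 and 753 in GR KO muscle. GR KO replicates 1 and 4 reached into the wild-type range. The means were 908 ± 114 and 719 ± 106 (SD, n = 4), a 1.27-fold lower level in the knockout, with a log2 fold change of -0.34 ± 0.15 (SE, limma unadjusted p = 0.0445, adjusted p = 0.880). Psmd12 was the 1 member with an unadjusted p under 0.05, or 2.22% of the members, where 4.63% of all genes tested had one. Psmd11, also a lid subunit, had 2927, 3148, 2598 and 2084 against 2530, 3725, 3765 and 3405. Here GR KO replicate 1 alone lay within the wild-type range, and the log2 fold change was 0.32 ± 0.18 (adjusted p = 0.880), or 0.20 without wild-type replicate 4.

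Psmd6, another lid subunit, was the 1 member of 45 whose groups did not overlap, or 2.22% of the members beside 2.58% of all genes tested (1.28% higher and 1.29% lower in GR KO muscle). Its signals were 2069, 2076, 2205 and 2158 in wild-type muscle and 1826, 2007, 1913 and 2060 in GR KO muscle, so the 4 knockout values lay just below the 4 wild-type values. The log2 fold change was -0.13 ± 0.11 (SE, limma adjusted p = 0.881). The other Psmd6 probe set had a log2 fold change of 0.21 with overlapping groups, from 1424 to 1964 in wild-type and from 1706 to 2312 in GR KO muscle. Psmd2, a large scaffold subunit, had 2267, 2241, 2936 and 1890 in wild-type and 1928, 2404, 2427 and 3257 in GR KO muscle. Psmd4, a ubiquitin receptor, had 2445, 2427, 2294 and 1937 against 1918, 2537, 2904 and 2485, and Psmd14, the lid's deubiquitinase, 937, 634, 674 and 1048 against 904, 629, 736 and 683. The groups overlapped for all 3, with log2 fold changes of 0.09, 0.10 and -0.14, which were -0.00078, 0.028 and -0.012 without wild-type replicate 4. Across the 11 non-ATPase subunits, 5 log2 fold changes were above 0 and 6 below, with a median of -0.13, and -0.01 without wild-type replicate 4. Psmd1, Psmd3, Psmd8 and Psmd13 had 0.13, -0.14, -0.14 and 0.19, and 0.0031, -0.13, -0.28 and 0.10 without it. Psmd7 had -0.17 with all arrays and -0.35 ± 0.15 without wild-type replicate 4 (adjusted p = 0.995).

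None of the assembly factors passed the threshold, and their groups overlapped. Psmd5, Psmd9 and Psmd10 are chaperones of the 19S base, and Psmd10 is also known as the oncoprotein gankyrin. Psmd10 signals were 52, 54, 66 and 48 in wild-type and 52, 57, 52 and 48 in GR KO muscle. Psmd5 had 114, 111, 133 and 141 against 125, 110, 113 and 148, and Psmd9 had 115, 115, 131 and 91 against 107, 127, 128 and 141. Each range of GR KO values overlapped that of the wild type, and the log2 fold changes of Psmd10, Psmd5 and Psmd9 were -0.07, -0.01 and 0.16. Without wild-type replicate 4 they were -0.13, 0.050 and 0.059. Of the core chaperones, Psmg2 had 231, 222, 308 and 188 against 309, 250, 224 and 308, a log2 fold change of 0.21 ± 0.18 (SE, limma adjusted p = 0.881), or 0.11 without wild-type replicate 4. Psmg1, its partner, had 248, 275, 321 and 193 against 256, 272, 238 and 311, and Psmg4 had 95, 102, 110 and 119 against 99, 89, 128 and 143. These chaperones showed no separation of the groups, and Psmg1, Psmg3 and Psmg4 had log2 fold changes of 0.07, -0.03 and 0.09, and of -0.062, -0.0098 and 0.14 without that array.

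Among the caps and the inhibitor, 0 of 4 passed the threshold. Psme1, a subunit of the interferon-inducible PA28 cap, had signals of 440, 706, 648 and 496 in wild-type and 588, 655, 669 and 818 in GR KO muscle. Its lowest GR KO value was above 2 of the wild-type values, and the log2 fold change was 0.27 ± 0.18 (SE, limma adjusted p = 0.880). Psme4, which encodes the PA200 cap, had 2425, 2023, 2056 and 2113 against 2237, 2063, 2272 and 2110, with all 4 GR KO values inside the wild-type range. Its log2 fold change was 0.01 with a 95% interval from -0.25 to 0.28, or 0.0054 without wild-type replicate 4. Psme3, the nuclear PA28 gamma cap, had 267, 267, 281 and 246 against 248, 259, 249 and 255 (log2 fold change -0.07, or -0.10 without wild-type replicate 4). Psmf1, the inhibitor of the core known as PI31, had 110, 135, 169 and 97 against 124, 111, 152 and 156 (log2 fold change 0.11 ± 0.20, or -0.016 without that array). The rule also took by symbol Psmc3ip, a meiotic recombination factor that is no proteasome subunit, and Psme3ip1, a partner of the PA28 gamma cap. Psmc3ip had 20, 22, 29 and 35 against 24, 24, 37 and 26, and Psme3ip1 had 421, 431, 447 and 335 against 365, 372, 471 and 477. The groups overlapped for both, with log2 fold changes of 0.08 and 0.04, or 0.22 and -0.051 without that array.

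Between arrays of the same group the members differed together. The median of the 45 members, each centred on its own mean over the arrays, was -0.05, 0.03, 0.12 and -0.28 on the 4 wild-type arrays and -0.13, 0.00135, 0.08 and 0.20 on the 4 GR KO arrays. The members' lowest medians were thus on wild-type replicate 4 and GR KO replicate 1 and their highest on GR KO replicate 4. All genes tested stayed between -0.01 and 0.03 on the same scale. That is a weak contrast, because arrays with a common scaling tend to hold a median over so many genes near 0. Of the 31 ring, ATPase and non-ATPase subunits, 19 had the lowest of their 8 signals on wild-type replicate 4, or 61.3%, beside 28.3% of all genes tested. Of the 31, only Psmc6, Psmd12 and Psmd14 had their highest there. Within the wild-type group, replicate 4 lay below the other 3 arrays for 22 of these 31 subunits (71.0%) and above them for 3, beside 37.5% and 34.8% of all genes tested. The genes tested were dimmer, with a median signal of 130 against 1203 for these subunits, and these shares were not taken over genes of like signal.

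**Figure D3:**
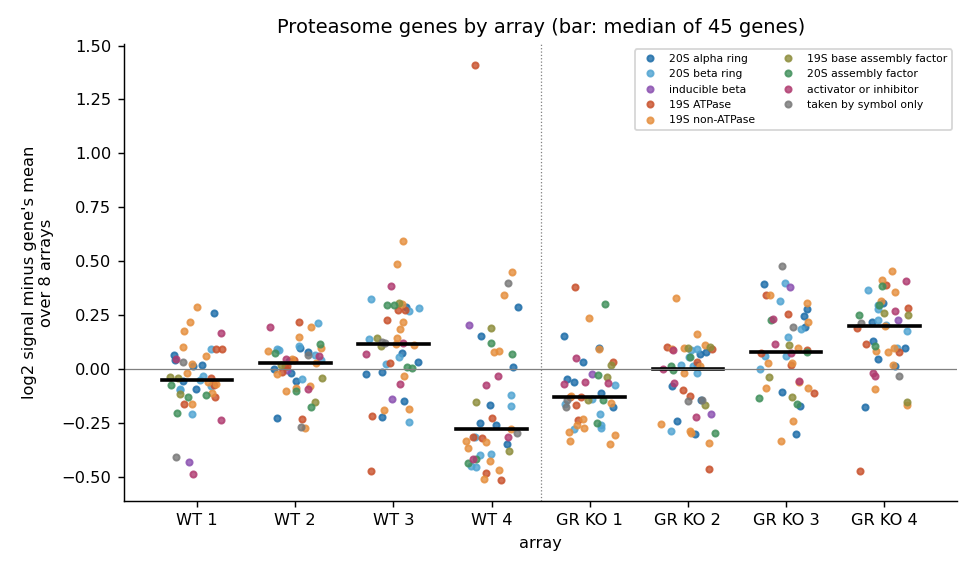
Log2 signal of 45 proteasome genes minus each gene's mean over 8 arrays (y axis) on the 4 wild-type and 4 GR KO arrays (x axis), with points coloured by role and bars at the median. The medians run from -0.28 on wild-type replicate 4 to 0.20 on GR KO replicate 4, and both groups span 0.

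Other transcripts moved on the same arrays. On wild-type replicate 4 the sum of muscle fibre markers was 167833, against 77795 to 88987 on the other wild-type arrays, but its members did not go one way. Acta1, skeletal actin, was at 28292 against 9942 to 12134 on the other wild-type arrays, while Myh7, slow myosin, was at 907 against 1827 to 4969 and Myh2, a fast oxidative myosin, at 5801 against 6317 to 7798. Tnnt1, slow troponin, was at 488 against 760 to 1909. The sum of fibroblast and matrix markers was lowest on that array, at 6537 against 9418 to 12246 on the other wild-type arrays. In GR KO muscle it was 10988 to 15660. On wild-type replicate 4, only Pdgfra of these 7 genes lay above its own mean over the arrays. It had 183 there, against 160 to 212 on the other wild-type arrays. The endothelial sum was 3095 on replicate 4, 3649 to 3811 on the other wild-type arrays and 3971 to 5697 in GR KO muscle. Of the 9 endothelial genes, 2 lay above their own mean on replicate 4, Egfl7 and Tek. They were at 643 and 275, against 521 to 573 and 178 to 262 on the other wild-type arrays. Of the tested markers, 8 of 9 endothelial and 5 of 7 fibroblast and matrix genes were above 0. Macrophage and leukocyte markers summed to between 632 and 1795 in wild-type and 667 and 1217 in GR KO muscle, with Cd68 and Cd163 below the signal filter. Ptprc, the pan-leukocyte antigen, carried this range, at 10, 91, 84 and 999 against 379, 96, 17 and 11, and without it the sums were 622 to 933 and 656 to 892. In bulk muscle, fewer cells of a type and less RNA per cell cannot be told apart. With the spike-in signal as covariate, the members' median log2 fold change was 0.07 instead of 0.08, with 30 above 0. In that fit 0 members passed an adjusted p of 0.05 in limma. The part of these markers and of the Gapdh ratio in the proteasome values was not tested.

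Leaving out single arrays shifted the balance of the members but called none. Without wild-type replicate 4, GR KO replicate 3 or GR KO replicate 4, the members' median log2 fold change was 0.00306, 0.05 and 0.00862. Without wild-type replicate 3 or GR KO replicate 1 it was 0.13 and 0.15. In each of these fits 0 members passed an adjusted p of 0.05. In the order given, 1, 0, 0, 0 and 3 of the 45 members had an unadjusted limma p under 0.05. Beside them stood 505, 292, 350, 510 and 1196 of all 11062 genes tested. Psmc6 changed sign without wild-type replicate 4, as did Psmb2, Psmb4, Psmc4, Psmc5, Psmd2, Psmd5, Psme3ip1, Psmf1 and Psmg1, all within their errors.

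**Figure D4:**
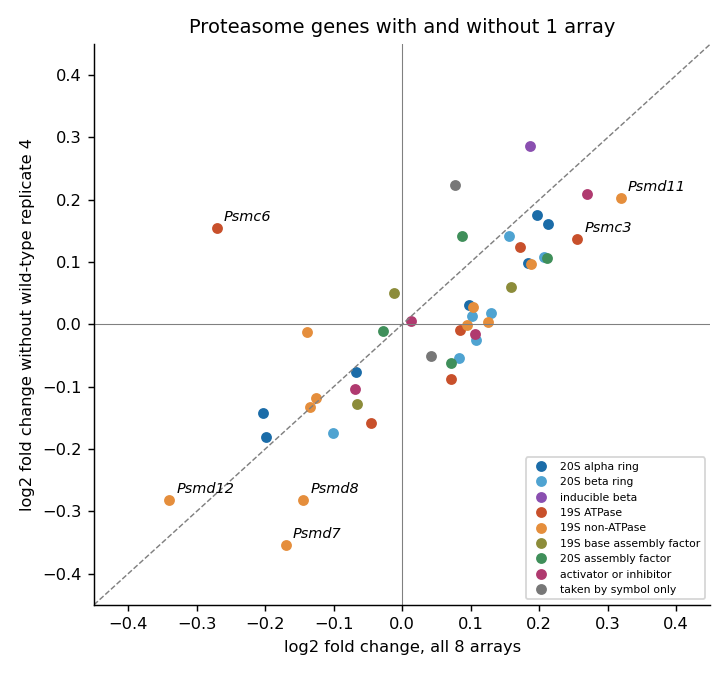
Log2 fold change of 45 proteasome genes with all 8 arrays (x axis) and without wild-type replicate 4 (y axis), coloured by role, with a dashed line where both are equal. Most points lie below the line. Psmc6 lies far above it, at -0.27 with all arrays and 0.15 without the array.

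Most members were read by more than 1 probe set, which allows a check within a gene. The 47 members had 100 probe sets, of which 77 lay above the filter, and 0 of the 77 passed in a limma fit of all 22518 probe sets above it (smallest adjusted p = 0.963). Of the 32 further probe sets above the filter, in 22 genes, 24 had the same sign as the brightest one. Psmd11 kept its sign at all 4 further probe sets above the filter, with log2 fold changes of 0.11, 0.08, 0.31 and 0.62. The last (SE 0.55) lay near the filter, at 26, 38, 24 and 5 in wild-type and 28, 26, 23 and 40 in GR KO muscle. The further probe sets of Psmc4 and Psmb1 with the largest values had 0.54 and 0.49, beside 0.07 and 0.10 at the brightest probe set. On both, wild-type replicate 4 was lowest, at 348 against 636 to 951 and at 40 against 82 to 86 on the other wild-type arrays. Another Psmb1 probe set had -0.16. Psme4 had -0.33, -0.11, -0.21 and -0.06 at its further probe sets beside 0.01 at its brightest. The brightest probe sets of Psma6, Psmc2, Psmd11 and Psme4 have names with _x or _s, by Affymetrix's naming sets that can match other transcripts too, so those values are less certain.

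**Figure D5:**
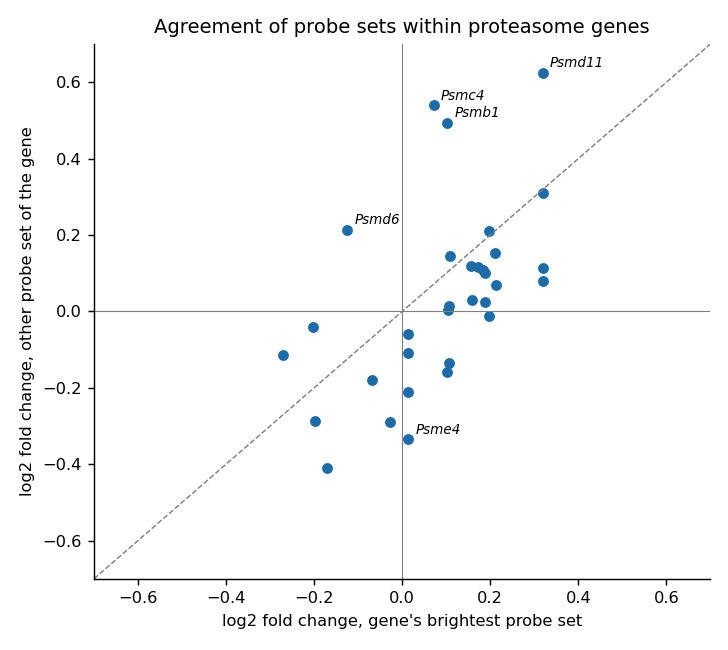
Log2 fold change at the brightest probe set of a proteasome gene (x axis) and at each further probe set of the same gene above the signal filter (y axis), 32 points, with a dashed line where both are equal. Of the points, 24 have the same sign on both axes, and points of Psmd11, Psmc4, Psmb1, Psmd6 and Psme4 are named.

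Genes that work with the proteasome were read from a list. From a list of 28 such genes, 19 were analysed here and all 19 were tested. Of these, 6 had a log2 fold change above 0 and 13 below, with a median of -0.04, and 0 passed the threshold in either direction. Those with the smallest p were Ecpas, a proteasome-binding scaffold, with signals of 621, 565, 626 and 760 in wild-type and 603, 569, 419 and 486 in GR KO muscle (log2 fold change -0.31 ± 0.15 SE), and Zfand5, a proteasome-activating zinc finger protein, with 4276, 2774, 2951 and 5487 against 3562, 2609, 2706 and 2199 (-0.45 ± 0.23). Vcp, the segregase that extracts ubiquitinated proteins, had 4656, 4501, 4223 and 3989 against 4003, 6125, 5717 and 5376 (0.27 ± 0.15), and Akirin2, which carries proteasomes into the nucleus, had -0.19 ± 0.13. All 4 had a limma adjusted p of 0.880 and overlapping groups. Nfe2l1, the transcription factor that raises proteasome genes when proteasome activity is short, had 1663, 1277, 1587 and 1516 against 1539, 1204, 1570 and 1564 (log2 fold change -0.04). The maturation factor Pomp had 0.06 and the deubiquitinase Usp14 had -0.23.

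Promoters of the members were searched for elements of known regulators, from 250 bases before to 50 after each RefSeq start on GRCm38.p6, on both strands. Of the members, 39 had a promoter in the RefSeq table. The core of the antioxidant response element that Nfe2l1 binds, TGACNNNGC, stood in 6 of the 39 (15.4%), those of Psmb5, Psmb6, Psmc6, Psmd9, Psmd12 and Psme4, and in the promoters of 3781 of 27025 genes. The palindromic glucocorticoid response element stood in 0 of the 39 and in 0.0111% of all genes, and its half-site AGAACA, which is part of that palindrome, in 15.4% and 21.3%. The CCAAT box stood in 38.5% of the members and 41.1% of all genes, and the alpha-PAL site in 5.13%, those of Psma2 and Psmg1, and 1.07%. The 4 matches that ended at least 14 bases before the start are shown with their flanks, because they include Psmd12, the member with the lowest log2 fold change, beside a catalytic, an ATPase and an assembly gene. Capitals mark the match, each sequence is written 5′ to 3′ on the gene's strand, and a position of -1 is the base before the start.
Psmb5: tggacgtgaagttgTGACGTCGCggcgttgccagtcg
Psmc6: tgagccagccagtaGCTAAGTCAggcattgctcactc
Psmd12: tctGCTGTGTCAcatttgcccccctc
Psmd9: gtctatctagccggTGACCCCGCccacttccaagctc
The Psmb5 match lies from -47 to -39 in chr14:54618020-54618056 on the minus strand, and that of Psmd9 from -31 to -23 in chr5:123228145-123228181 on the plus strand. As reverse complements, that of Psmc6 lies from -227 to -219 in chr14:45329583-45329619 and that of Psmd12 from -247 to -239 in chr11:107479278-107479303, both on the plus strand. The Psmd12 sequence starts 3 bases before the match, where the promoter window begins. Beside these sequences stand log2 fold changes of 0.13, -0.27, -0.34 and 0.16 for Psmb5, Psmc6, Psmd12 and Psmd9, none past the threshold. A match of letters is a description of the window and no measure of binding.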

How the data were processed

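Total RNA of 8 gastrocnemius muscles was labelled with biotin and hybridised to Affymetrix arrays. Per the submitters' processing notes the authors computed MAS5 signals, and the deposited files hold these intensities as whole numbers, not logged. No version or scaling target is named there. Their mean, with 2% of probe sets left out at each end, was 99.96 on every array. The number of arrays limits the precision. Separate animals are not stated in the labels, so the p-values and intervals cover only the spread among the 8 samples, which may be technical.

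Signals were used as log2, with 1 value of 0 among the probe sets tested set to its array's smallest positive value, and 64 control probe sets left out. Of the other 45037 probe sets, 34945 had 1 symbol, 932 several and 9160 none in the platform annotation. Of those with 1 symbol, 34741 were matched to RefSeq, whose symbol was then used. Each gene took its brightest probe set, and signals of different probe sets are not compared. Limma 3.58.1 in R 4.3.3 (lmFit, two-sided, group as the only term, eBayes using a trend of variance with mean) tested 11062 genes above the median signal, with Benjamini-Hochberg adjustment over all of them. Fold changes come from mean log2 signals. The fit was tested on simulated data. Figures used Python 3.11.15.

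Members and lists were chosen with earlier results of these data known. Every member is accounted for, and signals on each array are given for the pair of smallest p and the brightest in each role, members with separate groups, the catalytic subunits, Psme1, Psme4 and Psmf1. The other members are given by fold change, and the signals of Psmc6, Psmd2, Psmd4, Psmd14, Vcp and Nfe2l1 were added after their values were seen. Alternatives are given in the closing section.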

Additional observations from a re-analysis of the deposited data

Results flagged for a closer look

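An array far from the other 3 of its group was found for 2 of the 90 sets of 4 signals of the tested members, and chance alone gives about 1 in 20 groups. Both were on wild-type replicate 4. The signal of Psmc3 was 1669 there, against 2263 to 2372 on the other wild-type arrays. That of Psmc6 was 709, against 192 to 238. These ATPase subunits of the same ring stood apart in opposite directions on the same array.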

How the results depend on the processing

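Under every alternative run, 0 members passed an adjusted p of 0.05 in limma, and the smallest adjusted p of a member was 0.368. Of 975 values of the 45 tested members under alternatives, 916 kept their direction, and 22 members had a value of the opposite sign. The changes of filter, the eBayes settings and the replicate block left each fold change as it was, so their values kept direction by construction. Over all genes, 6 passed with the settings of the report, 1 with the mean of a gene's probe sets, 2 with eBayes without the trend, 10 with array weights, 3 with the spike-in signal as covariate, and 0 of 18193 with no filter, where 857 had an unadjusted p under 0.05. Leaving out 1 array gave 0 to 5 genes, with 0 without wild-type replicate 1 or 3 or GR KO replicate 2 or 4 (389, 510, 329 and 350 at an unadjusted p under 0.05), 3 without wild-type replicate 2 and 2 without GR KO replicate 3. Leaving out wild-type replicate 4 and GR KO replicate 1 together, chosen after seeing the data, gave 13. The labels do not say whether the replicate numbers pair samples. Deviations of same-numbered arrays correlated at -0.19, 0.18, 0.11 and -0.39 across genes, which shows no common pairing but cannot exclude one. The highest correlation of a wild-type with a GR KO array was 0.58, for wild-type replicate 4 with GR KO replicate 1. The replicate block gave 1 gene and 0 members.

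Values of the opposite sign were as follows, and the cause was not tested. The mean of probe sets gave 0.36 for Psmc1, -0.022 for Psmc2, 0.026 for Psmc6, -0.077 for Psmd4, 0.044 for Psmd6, -0.29 for Psme4 and -0.26 for Psmg4. Quantile normalization gave 0.00821 for Psmd10, 0.019 for Psmd5 and -0.026 for Psme4. Psmd5 was 0.020 with median centring, 0.022 with array weights and 0.000394 with the spike-in covariate, and with array weights Psmg1 was -0.038, Psmc4 -0.0068 and Psmg3 0.023. Psmg3 was 0.0034 with median centring. Another probe set gave -0.013 for Psma6, -0.16 for Psmb1, 0.21 for Psmd6, -0.13 for Psmf1, and -0.33, -0.11, -0.21 and -0.060 for Psme4. Leaving out single arrays, or wild-type replicate 4 with GR KO replicate 1, gave ranges of -0.055 to 0.19 for Psmb2, -0.024 to 0.22 for Psmb4, -0.18 to 0.039 for Psmc1, -0.088 to 0.16 for Psmc4, -0.0093 to 0.19 for Psmc5, -0.47 to 0.15 for Psmc6, -0.040 to 0.21 for Psmd2, -0.29 to 0.029 for Psmd8, -0.076 to 0.070 for Psmg3, -0.069 to 0.29 for Psmc3ip, -0.13 to 0.025 for Psmd10, -0.10 to 0.050 for Psmd5, -0.051 to 0.11 for Psme3ip1, -0.015 to 0.072 for Psme4, -0.016 to 0.25 for Psmf1, -0.062 to 0.18 for Psmg1 and -0.028 to 0.20 for Psmg4. Signals near the filter, as for Psmc3ip, limit what can be resolved.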
